A study of Mus musculus with 16 samples.

Results

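The deposited mouse miRNA tables hold a set of 10 names, here called fragment-prone, led by miR-6240 and miR-6236: miR-6240-3p, miR-6240-5p, miR-6236-5p, miR-6236-3p, miR-6538, miR-6539, miR-1951, miR-1931-3p, miR-6406-5p and miR-6364-3p. They are 10 of 2510 listed names, found by removing the text in parentheses and trailing spaces from each name. They were chosen on measured values of these libraries, namely their read counts, the lengths of their sequences, the share of reads with a mismatch marked in the name and their change with medium, so these are described below, and tests compare only genotypes within a medium. The libraries are small RNA libraries of C2C12, mouse muscle precursor cells in which low serum starts fusion to myotubes; the labels call the cells C2C12 PAX7 NEG. The 4 groups of 4 libraries are wild-type control and triple-knockout (tKO) cells, in which miR-206 and both miR-1a genes (miR-1a-1, miR-1a-2) were deleted, each in growth medium with 20% FBS (GM) and after 3 days with 2% HS in place of that serum (DM3). A group holds lines 1 and 2 (control populations, or tKO clones), each with biological replicates 1 and 2, so a genotype rests on 2 lines and p-values measure only the spread between these libraries.

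A canonical miRNA is cut from a hairpin by Drosha and Dicer, which leaves a product with a fixed 5′ end and a narrow range of lengths. Its bases 2 to 8, the seed, pair with target mRNAs, so a read that starts elsewhere carries another seed. Ribosomal RNA, tRNA and short interspersed repeats are far more abundant than most miRNAs and shed fragments of mixed length, and a hairpin entry that resembles them can collect such fragments in miRNA tables. As background, the entries miR-6240 and miR-6236 are known to resemble large-subunit ribosomal RNA; no ribosomal RNA sequence was at hand to compare them with, and that match was not tested.

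The annotated hairpins lie apart in the GRCm38 genome, in the GENCODE M21 annotation. Mir6240 is at chr5:114851948-114852064 on the plus strand, and it and Mir6236 lie outside other annotated genes. The other 6 lie in introns of protein-coding genes: Mir1951 (chr2:115638725-115638813) in BC052040, Mir1931 (chr10:93162785-93162903) in Cdk17, Mir6406 (chr11:68220892-68221011) in Ntn1 on the opposite strand, Mir6538 (chr12:26414901-26415010) in Rnf144a, Mir6539 (chr14:67859636-67859745) in Dock5 and Mir6364 (chr16:5215789-5215874) in AU021092. RefSeq (GRCm38.p6) holds mature sequences for 7 of the 8 hairpin genes, and 6 of these are shown with the seed in capitals because no 2 of the 7 share a seed: the names are not a miRNA family.
miR-6240: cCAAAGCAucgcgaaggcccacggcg
miR-6538: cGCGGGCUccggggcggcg
miR-1951: gUAGUGGAgacugguguggcua
miR-1931: aUGCAAGGgcuggugcgauggc
miR-6406: cGCGACCUcaggcugacucaug
miR-6364: uCGAUCCCcagcacuccuguga

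The sequences that were sequenced differ from these. For 6 names the listed sequence with the highest mean level over the 16 libraries is given below, followed by its commonest extension of 1 or 2 bases where most or many of its reads carry one. Capitals mark a mismatch stated in the name, which differs from the hairpin, or the extension that the tables count as added at the 3′ end, in which single bases can match the hairpin.
miR-6240-3p: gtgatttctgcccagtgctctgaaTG
miR-6240-5p: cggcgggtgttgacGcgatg
miR-6539: gcacagtgatgaactctgagggct
miR-1931-3p: agggctggtgAgatggctc
miR-6406-5p: ccgcgacctcagATC
miR-6364-3p: gttcgatccccGgca
The leading sequence made up 15.7% of miR-6240-3p, 15.3% of miR-6240-5p, and 10.2% of miR-6236-3p, against 31.4% of miR-1931-3p, 67.9% of miR-6364-3p and 97.5% of miR-6406-5p. For miR-6236-5p the leader depended on 1 library: by mean CPM it was a 26-nt sequence with 6.45% of the reads, and without tKO DM3 line 1 replicate 1, or by pooled reads, an 18-nt sequence with 15.2%. No other member's leader changed without that library, an alternative chosen after seeing the data. By pooled reads a 14-nt sequence with 10.7% led miR-6236-3p. The 24-nt leader of miR-6240-3p varied between libraries, from 4.33% to 23.9% of that name. In some libraries, but not all, a 14-nt sequence exceeded it, as in control GM line 1 replicate 1 (9.10% against 4.87%). The large names were mixtures of many overlapping sequences (3824 distinct ones for miR-6240-3p and 3674 for miR-6236-5p).

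miR-6538 and miR-1951 were nearly empty as listed. The name without an arm holds only the exact mature sequence, which had 3 reads for miR-6538 and 9 for miR-1951 in all 16 libraries. Bases counted as added at the 3′ end followed it in 100% of these miR-6538 reads and 88.9% of these miR-1951 reads. The other reads from these hairpins stand under miR-6538-5p (49757 reads) and miR-1951-5p (5407 reads), which are no members and are given beside them. Of these reads 98.5% and 99.7% were shorter than 18 nt, and their leading sequences were ggctccggggcggcg and ccacctctcttcCcCC. The second comes from the other arm of Mir1951 than the annotated miRNA.

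Read length separated most of the names from well-known miRNAs. The median listed length, which leaves out the added bases, was 22 nt for miR-6240-3p, 18 nt for miR-6240-5p and miR-6236-5p, 16 nt for miR-6236-3p, 18 nt for miR-1931-3p, 15 nt for miR-6364-3p and 13 nt for miR-6406-5p. Although the median of miR-6240-3p is that of a miRNA, its reads were spread from 14 nt at the 10th percentile to 28 nt at the 90th, and 46.1% of them were 20 to 24 nt long. The share between 20 and 24 nt was 31.4% for miR-6240-5p, 15.9% for miR-6236-5p, 17.7% for miR-6236-3p, 8.78% for miR-1931-3p, 0.033% for miR-6364-3p and 0.003% for miR-6406-5p. In a fixed list of 10 reference miRNAs (3 let-7 members, miR-21a-5p, miR-22-3p, miR-92a-3p, miR-125b-5p, miR-199a-3p, miR-221-3p and miR-30a-5p) its median was 99.0%. Over all 995 names with 100 or more reads the median was 56.0%, so short and mixed lengths are common in these tables. Per the labels, a gel enriched inserts of 15 to 50 nt, although the tables also list sequences from 13 nt and, for miR-6240-3p, up to 57 nt.

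**Figure D1:**
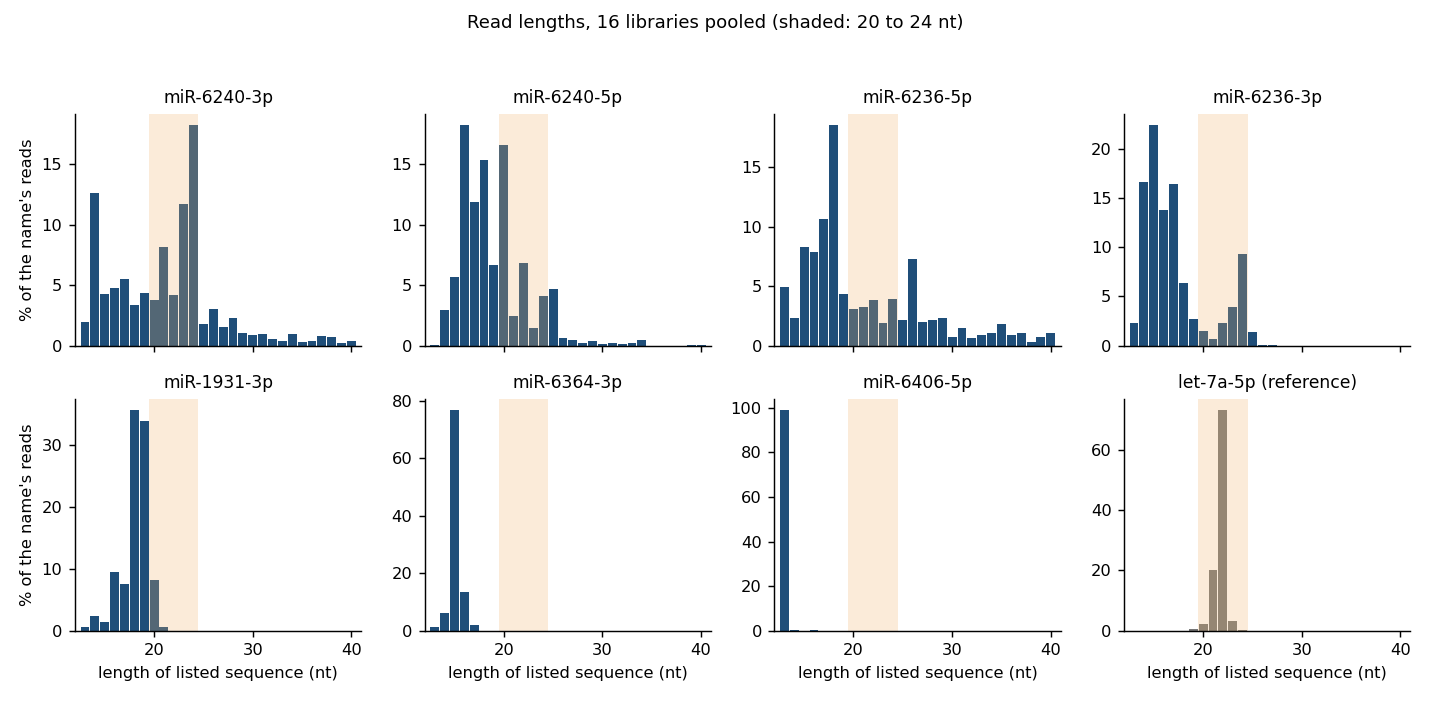
Distribution of listed sequence lengths (x axis, nt) as a percentage of each name's reads (y axis, scaled per panel), 16 libraries pooled, for 7 members and let-7a-5p; lengths over 40 nt are not drawn and the shaded band is 20 to 24 nt. The let-7a-5p reads fall in the band, those of miR-6406-5p at 13 nt and of miR-6364-3p at 15 nt, while those of miR-6236-5p lie mostly outside it; miR-6240-3p has its highest bar inside, at 24 nt (18.3%), and another at 14 nt (12.6%).

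Most reads of 5 of these names carried a mismatch to the hairpin. The share was 96.9% for miR-6240-5p, 75.0% for miR-6236-3p, 99.7% for miR-1931-3p, 99.7% for miR-6406-5p and 96.1% for miR-6364-3p, and it was 26.3% for miR-6240-3p and 32.4% for miR-6236-5p. The reference miRNAs had a median of 7.23% and reached 47.4%, a range that includes the pooled shares of miR-6240-3p and miR-6236-5p. Per library the share of miR-6236-5p was 25.4 to 31.8% in GM and 36.4 to 72.7% in DM3. Above that range were control DM3 line 1 replicate 2 (60.1%) and tKO DM3 line 1 replicate 1 (72.7%). Over all names with 100 or more reads the median was 36.4%. miR-6539 had none, but by the way the tables name sequences a name without an arm can hold no mismatch. Its variants stand under miR-6539-5p, with 13.3% mismatched reads of 974 and 84.2% of reads 20 to 24 nt long.

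The mismatches were not scattered. Placed on the hairpins, with positions counted from 1 at the hairpin's 5′ end and the hairpin's base first, they fell on the same few bases with the same substitution in nearly every read. On Mir6240, 99.4% of the 59341 miR-6240-5p reads over base 46 had A46G, and 99.7% of the 103257 miR-6240-3p reads over base 61 had T61G, as had 98.1% of the 32490 miR-6240-5p reads there. G90T stood in 98.7% of 55015 miR-6240-3p reads. On Mir6236, G53C stood in 99.7% of 45004 miR-6236-5p reads, A66G in 99.5% of 6908 miR-6236-3p reads and A83G in 90.8% of 1703. The smallest share in any single library with 20 or more covering reads was 94.1% for G90T and 78.1% for A83G, and lay between 96.0% and 99.6% for the rest. The Mir6240 hairpin is shown with 3 differing bases in capitals, to show how far the reads run between them. At least 5% of a name's reads cover each of these, and at least 50% of the covering reads differ. Bases with fewer reads were not marked.
Mir6240: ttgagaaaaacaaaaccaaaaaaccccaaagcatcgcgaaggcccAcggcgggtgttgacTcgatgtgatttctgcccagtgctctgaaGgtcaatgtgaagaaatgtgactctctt
Of the 814535 reads placed on Mir6240, 30.5% covered 1 of these bases, 69.4% none and 0.104% more than 1; on Mir6236 the shares were 31.5%, 68.5% and 0.0294%. The tables list nearly no sequence with more than 1 mismatch (0.121% of entries), so a sequence that differs at 2 of these bases would rarely be listed. The smaller names had a fixed difference too: C110A in 96.5% of miR-1931-3p reads over that base, G37A in 98.6% of miR-6406-5p, A73G in 84.9% and T78C in 83.6% of miR-6364-3p. Among 9 reference miRNAs placed in the same way, the largest share of any substitution at a well-covered base was between 0.664% and 12.8% in 7, and reached 42.0% in miR-199a-3p, with 571 reads in all, and 73.4% in miR-92a-3p.

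**Figure D2:**
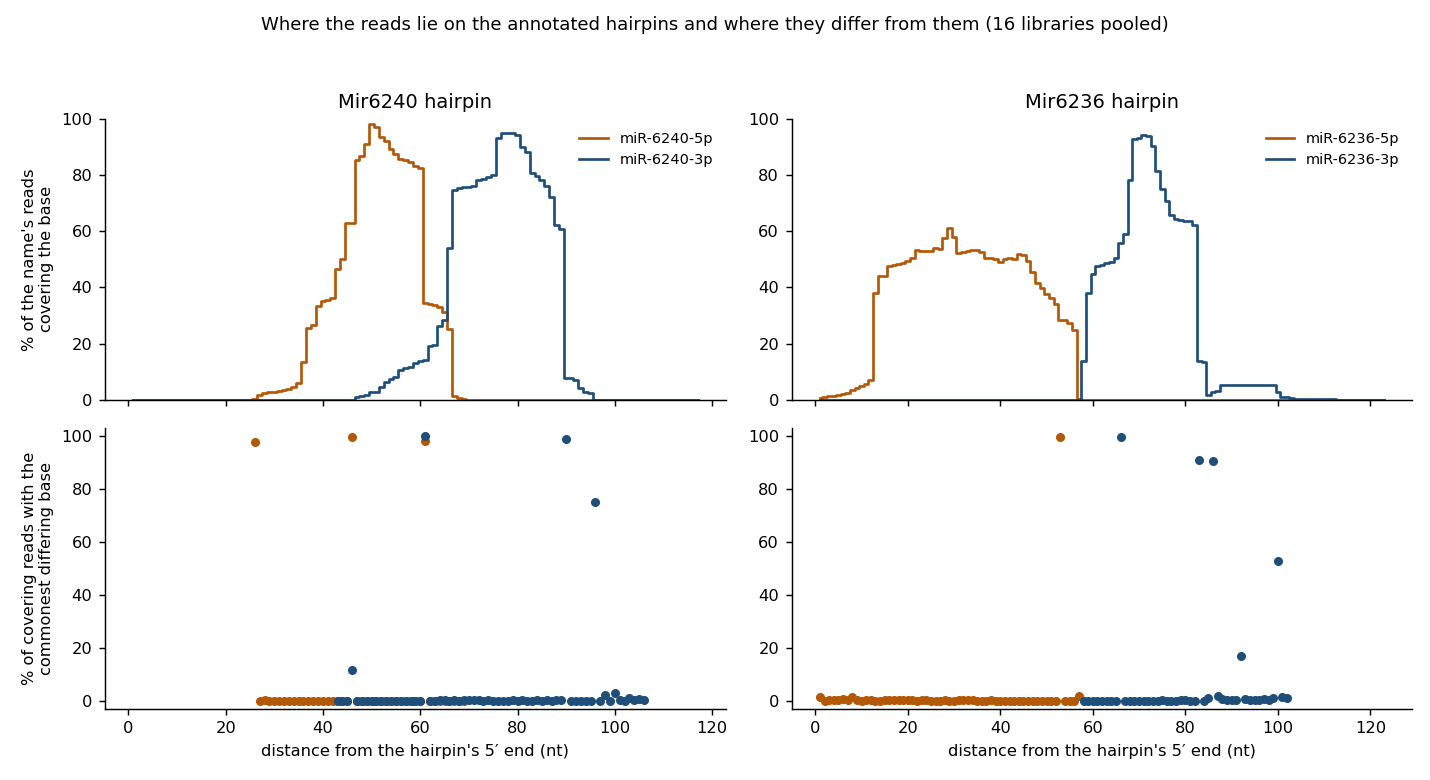
Top, the percentage of a name's reads that cover each base of the Mir6240 and Mir6236 hairpins (x axis, distance from the 5′ end in nt); bottom, the percentage of the reads over that base that carry its commonest differing base, for bases with at least 100 reads, 16 libraries pooled. The 3 marked differences of each hairpin lie above 90% in the names given for them in the text. Base 46 has 11.4% in the 166 miR-6240-3p reads there. Some bases with few reads also lie high, such as base 26 of miR-6240-5p (97.4% of 273) and base 86 of miR-6236-3p (90.4% of 343). Coverage drops at G90T and T61G: 60.7% of miR-6240-3p reads cover base 89 and 7.64% base 90, and 82.4% of miR-6240-5p reads cover base 60 and 34.4% base 61. At A46G it stays at 62.9% of miR-6240-5p reads, after 63.0% at the base before.

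Many read ends fell directly before 3 of the differing bases. Of miR-6240-3p reads 53.1% ended at base 89, directly before G90T, and of miR-6240-5p reads 47.9% ended at base 60, before T61G. For miR-6236-3p, 48.3% ended at base 82, before A83G. Before others fewer ended: 14.1% of miR-6364-3p reads before T78C and 5.54% of miR-6236-5p before G53C. The shares were 0.62% for miR-6240-5p reads before A46G and 0.336% for miR-6406-5p before G37A. The tables count 1 or 2 further bases on these reads as added to the 3′ end: 97.8% of the miR-6240-3p reads ending at base 89 had such an extension, and in 96.3% its first base was the T that the longer reads show in place of the hairpin's G. The corresponding shares were 95.9% and 83.2% for miR-6240-5p and 91.2% and 90.5% for miR-6236-3p. For miR-6364-3p reads ending before T78C they were 81.4% and 79.3%. At other ends 19.4% of miR-6240-3p, 13.9% of miR-6240-5p, 49.5% of miR-6236-3p and 25.5% of miR-6364-3p reads were extended. Of miR-6406-5p reads 99.7% had 2 added bases, TC after 87.4% of the leading sequence, so that its last 3 bases, ATC, all differ from the hairpin. Whether the extensions were added to the RNA or belong to a longer transcript was not tested.

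Few reads were the annotated miRNA. The share that started and ended within 3 bases of the RefSeq mature ends was 0.41% for miR-6240-5p, 0.105% for miR-1931-3p, 43.2% for miR-6236-3p, and 0 for miR-6240-3p, miR-6236-5p, miR-6406-5p and miR-6364-3p. It was 78.6% to 100% in the 10 reference miRNAs, with a median of 99.4%. The 0 for miR-6240-3p and miR-6236-5p follows from the names, since RefSeq holds a mature miRNA on the other arm only. For miR-6406-5p and miR-6364-3p it came from the 3′ end. Of miR-6406-5p reads 98.6% started at base 25 (mature start 26) and 98.5% ended at base 37 (mature end 47). Of miR-6364-3p reads 81.7% started at base 62 (mature start 64) and 74.8% ended at base 76 (mature end 85). miR-6539 goes against the label of the set: its 417 reads were by its name the exact 24-nt sequence, 97.8% of them without added bases, and the 3 most frequent sequences of miR-6539-5p kept the same first base and lacked 1 to 3 bases at the 3′ end. No mature miR-6539 sequence was in the RefSeq table, so its annotated ends could not be compared.

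Outside the miRNA hairpins, the leading sequences of the miR-6240 and miR-6236 names of 16 nt or longer that were searched were in 0 other GENCODE M21 genes' transcripts. The leading miR-1931-3p sequence was in transcripts of 56 other genes, and its 18-nt form gggctggtgAgatggctc in those of 243; as background, such a run stands at the start of B2-family repeats, which RNA polymerase III transcribes. The leading miR-6364-3p sequence holds GTTCGATCC, which as background is a common run in the T arm of tRNAs. These 9 letters were in 85.3% of miR-6364-3p reads and, on either strand, in 1 of 2201 GENCODE miRNA hairpins (0.0454%), Mir6364 itself. As they stand in the leading sequence, their high share in these reads and the match in Mir6364 follow from the choice of letters. A match of letters does not show the source of a read, and repeat, tRNA and ribosomal RNA sequences were not compared.

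The libraries differed widely in depth, from 112792 to 6543570 listed reads, and 3 reads, the smallest count taken as measurable, correspond to 0.458 to 26.6 CPM (reads per 1000000 listed reads). In control libraries the 10 names together took 0.615% (Wilson 95% interval 0.604 to 0.626%) to 1.74% of reads in GM and 5.01 to 17.2% in DM3. In tKO libraries they took 0.874 to 5.76% and 1.63 to 35.5% (35.2 to 35.7%); intervals cover counting error only. The library that stands apart most in these measures, called so below, is tKO DM3 line 1 replicate 1: it is the shallowest, gave the 35.5%, and had 18.8% of the reads of all other names under 18 nt, against 1.62 to 10.7% in the other libraries. Within their groups control DM3 line 1 replicate 2, with the 17.2%, and tKO GM line 1 replicate 2, with the 5.76%, were also high. The targeted miR-206-3p was at 837 to 1466 CPM in control GM and 19950.5 to 57442 in control DM3, against 0.808 to 15.5 in tKO GM and 0.96 to 70.9 in tKO DM3. The 4 muscle markers were detected in all 4 control DM3 libraries. In DM3 miR-133a-3p was at 65.8 to 762 CPM in tKO and 1130 to 2190 CPM in control libraries. For miR-133b-3p the ranges were 24.7 to 200 and 347 to 738 CPM, so both were lower in tKO libraries without overlap. The part of this in the members' genotype differences was not tested. The 6 markers of neurons, hepatocytes, blood cells and endothelium summed to 24.2 to 106 CPM in GM and 8.07 to 38.1 CPM in DM3, with miR-142a-3p and miR-451a at 2 reads each in all.

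The 4 names of Mir6240 and Mir6236 carried most of the members' reads. The most abundant was miR-6240-3p. In control GM it was at 7290.1, 7398, 3544 and 11647 CPM (line 1 replicates 1 and 2, then line 2 replicates 1 and 2, the order kept below), and in control DM3 at 31811, 138097, 39354 and 39896. Every control DM3 library was above every control GM library; in such bulk libraries fewer cells of a type and less RNA per cell cannot be told apart. Short reads moved with medium too: the share of other names' reads under 18 nt was 1.62 to 2.37% in control GM and 3.58 to 10.7% in control DM3, with no overlap, and was highest in the library with 138097 CPM. In tKO cells that share was 1.62 to 4.25% in GM and 2.39 to 18.8% in DM3; its part in the members' levels was not tested. In tKO cells it was at 7837, 33304, 5216 and 10425 CPM in GM and at 271127, 21399.6, 24973 and 13087 in DM3, and the groups overlapped: line 1 replicate 2 was lower in DM3 than in GM. The fitted log2 difference, DM3 minus GM, was 2.73 (SE 0.80) in control and 2.40 (SE 0.79) in tKO cells, given with no test because the change with medium entered the choice. Without the library that stands apart the tKO value was 0.44 (SE 0.52), and without control DM3 line 1 replicate 2 the control value was 2.02.

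The other arm, miR-6240-5p, had a similar pattern. It lay between 429 and 920.3 CPM in control GM and between 4968 and 20977 in control DM3, and between 403 and 2851 in tKO GM and 1518 and 53293 in tKO DM3. Its log2 difference between media was 3.46 (SE 0.83) in both genotypes, and 1.33 (SE 0.49) in tKO cells without the library that stands apart. Over the 16 libraries the log2 levels of both arms correlated with a Pearson r of 0.972, as a description; both are shares of the same libraries.

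The fitted difference of miR-6236-5p was smaller. It was at 3267, 3783, 1462 and 3248 CPM in control GM and at 5364, 9951, 4105 and 4370.3 in control DM3. In tKO cells it was at 2494, 16879.8, 2004 and 4531 CPM in GM and 24798, 2819, 2197 and 1279.8 in DM3, so the control groups did not overlap and the tKO groups did. The log2 difference was 0.67 (SE 0.70) in control and 0.17 (SE 0.70) in tKO cells, which became -1.65 (SE 0.51) without the library that stands apart. The 3p name, miR-6236-3p, with 118 to 297 CPM in control GM and 376 to 1667 in control DM3, had 1.56 (SE 0.84) and 1.51 (SE 0.84), and -0.83 (SE 0.57) in tKO cells without that library. The direction in tKO cells for miR-6236-3p thus rests on 1 library. For miR-6236-5p it also depended on the processing, since the lowest of 5 alternatives that left out no library was -0.72. Without tKO GM line 1 replicate 2 the tKO values of miR-6236-5p and miR-6236-3p were 0.87 and 2.14. Without control DM3 line 1 replicate 2 the control value of miR-6236-3p was 0.90.

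The proportion of Mir6240 to Mir6236 reads differed between media, also in the library that stands apart. It is given as a description with no test, because read counts and the change with medium entered the choice. Reads of both Mir6240 arms per read of both Mir6236 arms were 2.06 to 3.64 in GM and 7.11 to 13.7 in DM3 in control cells, and 2.02 to 3.24 and 8.23 to 11.7 in tKO cells. The 8 GM libraries and the 8 DM3 libraries did not overlap, while control and tKO ranges overlapped in each medium. The 3p to 5p ratio of miR-6240 was 8.25 to 12.9 in GM and 2.96 to 8.62 in DM3, which overlap. Within miR-6236-5p the mixture of fragments also differed: reads over base 53 were 21.5 to 27.7% of the name in GM and 32.5 to 70.7% in DM3. Its 18-nt leading sequence, which ends before that base, was at 148 to 604 CPM in control GM and 409 to 745 in control DM3, overlapping, whereas the 26-nt one over that base, lower than it in 13 of all 16 libraries, was at 56.4 to 188 and 251 to 1474 CPM.

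**Figure D3:**
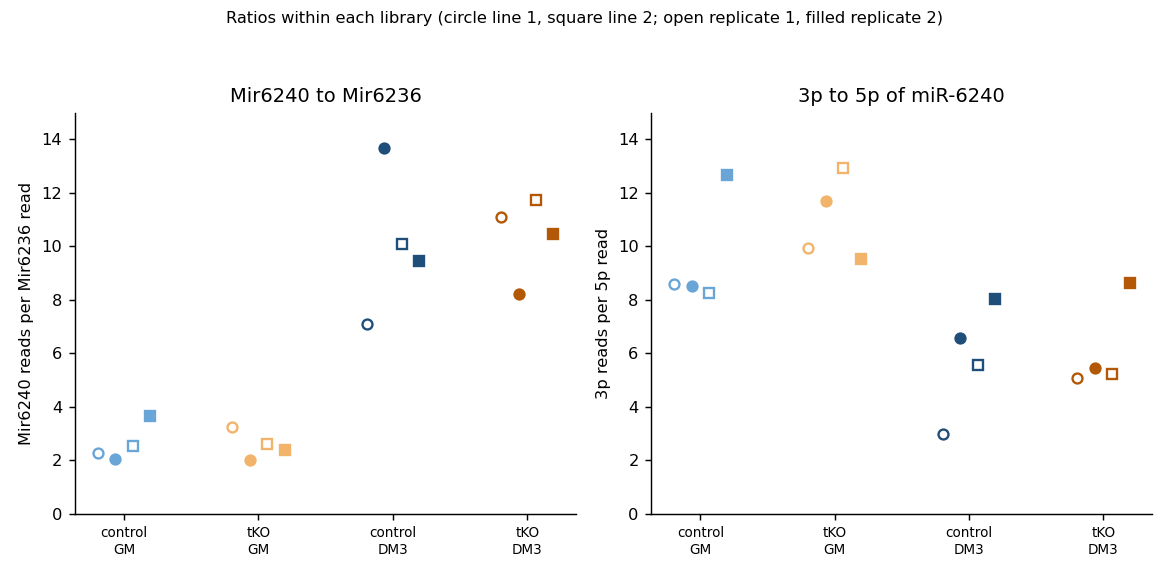
Left, reads of miR-6240-3p and miR-6240-5p together per read of miR-6236-5p and miR-6236-3p together; right, reads of miR-6240-3p per read of miR-6240-5p; each point is 1 library (circle line 1, square line 2; open replicate 1, filled replicate 2) in 4 groups. The left ratio is at most 3.64 in GM and at least 7.11 in DM3.

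**Figure D4:**
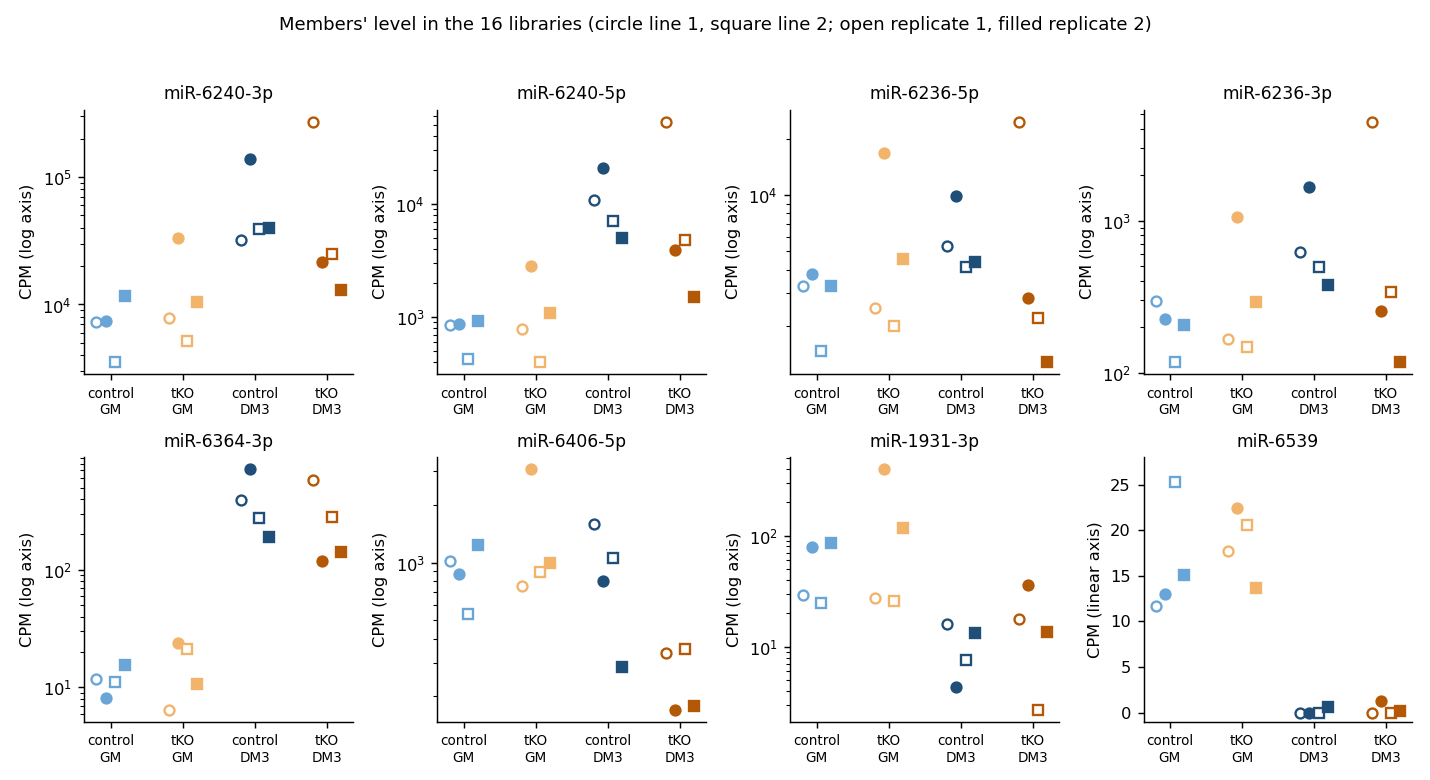
Level in CPM of all listed reads (y axis, logarithmic except for miR-6539) of 8 members in each of 16 libraries by group (x axis; circle line 1, square line 2; open replicate 1, filled replicate 2). The open circle of tKO DM3 is the highest point for the miR-6240 and miR-6236 names, miR-6364-3p is higher in DM3 and miR-6539 near 0 there.

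The smaller names went in both directions. The level of miR-6364-3p was at 11.7, 8.16, 11.1 and 15.6 CPM in control GM and 395, 713, 276 and 189 in control DM3, and at 6.46, 24, 21.1 and 10.7 in tKO GM and 576, 119, 279.5 and 140.4 in tKO DM3. Every DM3 library was above every GM library in both genotypes, with log2 differences of 4.66 (SE 0.58) and 3.92 (SE 0.56). The arm names of the nearly empty members were also higher: miR-6538-5p was at 98.6 to 373 CPM in GM and 1268 to 23698 in DM3, and miR-1951-5p at 10.5 to 37.3 and 142 to 3085.

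The opposite held for miR-1931-3p. It was at 29.3, 79.8, 24.8 and 85.5 CPM in control GM and 16.1, 4.32, 7.54 and 13.4 in control DM3, and at 27.5, 395, 26.1 and 118 in tKO GM and 17.7, 35.8, 2.71 and 13.6 in tKO DM3. The control groups did not overlap and the tKO groups did, although all 4 tKO lines and replicates were lower in DM3 than in GM. In GM all replicate 1 libraries, at 24.8 to 29.3 CPM, were below all replicate 2 libraries, at 79.8 to 395 CPM. The part of depth or replicate number in this was not tested. The log2 difference was -2.77 (SE 0.79) in control and -2.93 (SE 0.77) in tKO cells, where it became -2.0 without GM line 1 replicate 2 and -3.58 without DM3 line 1 replicate 2.

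The reads of miR-6539 came mostly from GM libraries. It was at 11.7, 13.1, 25.3 and 15.1 CPM in control GM and 17.8, 22.5, 20.5 and 13.7 in tKO GM. In DM3 5 of 8 libraries had no read and the highest was 1.28 CPM; the 3-read floor of DM3 libraries reaches 26.6 CPM, so in the shallow ones its GM level would have been hard to see. In the 2 deepest DM3 libraries, both tKO, 1.28 and 0.22 CPM stood against floors of 0.96 and 0.66 CPM. The log2 difference was -5.46 (SE 0.74) and -5.03 (SE 0.65), and became -8.46 without control DM3 line 2 replicate 2 and -6.32 without tKO DM3 line 1 replicate 2; fitted values of so few reads depend on the prior count. The hepatocyte marker miR-122-5p was at 3.9 to 75.5 CPM in GM and 0 to 8.96 CPM in DM3; its part in the change of miR-6539 was not tested.

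For miR-6406-5p the media overlapped in control cells and not in tKO cells. It was at 1019, 868, 536 and 1235 CPM in control GM and 1597, 799, 1063 and 286 in control DM3, which overlap. In tKO cells it was at 754, 3075, 898 and 999 CPM in GM and 337, 170.2, 354 and 179 in DM3, which do not. The log2 difference between media was -0.41 (SE 0.41) in control cells, where scaling by all listed reads gave 0.03, and -2.57 (SE 0.43) in tKO cells. Whether the change with medium differs between genotypes was not tested.

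Across the 8 members that passed the filter on low counts (miR-6538 and miR-1951 did not), 7 had control groups that did not overlap between media and 3 had tKO groups that did not. Over all 881 names tested the shares were 32.1% in control and 19.4% in tKO cells; since the change with medium entered the choice, nothing is read from these counts. Scaling by all listed reads in place of TMM moved the median of all names by 0.36 in control and 0.19 in tKO cells on the log2 scale, and changed the sign of no other member's difference between media.

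Between genotypes, the contrast not named in the choice, no member passed the test in either medium. Of all 881 names, 1.36% in GM and 1.14% in DM3 had an adjusted p under 0.05 in edgeR's quasi-likelihood test, adjusted across all names by Benjamini-Hochberg. At an unadjusted p under 0.05 there were 0 of 8 members in GM and 1 of 8 in DM3, against 76 and 109 of all 881 names. No member had control and tKO libraries that did not overlap, in GM or in DM3, against 8.17% and 5.45% of all names. DESeq2's Wald test called 1 member, in DM3.

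In GM all 8 members had a higher fitted level in tKO cells, with a median log2 fold change of 0.64 against 0.12 over all names, and each 95% interval included 0. The value was 0.72 (SE 0.75, adjusted p = 0.917) for miR-6240-3p and 0.89 (SE 0.71, adjusted p = 0.916) for miR-6236-5p in edgeR's test. The approximate 95% interval for miR-6240-3p ran from -0.75 to 2.19, so differences within it are not excluded. For all 8 members tKO GM line 1 replicate 2 was the highest tKO GM library, and 4.25% of the reads of other names in it were under 18 nt, against 1.62 to 2.37% in the other 7 GM libraries. Its part in the positive values was not tested; without it the log2 fold change was 0.12 for miR-6240-3p, 0.09 for miR-6236-5p and 0.06 for miR-1931-3p.

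In DM3 miR-6406-5p came closest to a call. Its log2 fold change, tKO minus control, was -1.69 (SE 0.42, 95% interval -2.52 to -0.86, adjusted p = 0.0531 in edgeR's test). It was negative under the 24 alternatives that gave a value, from -2.02 to -1.52, and its adjusted p passed 0.05 in 7 of them, with a range from 0.00621 to 0.193. Leaving out mismatched reads or keeping 18 to 25 nt removes nearly all of its reads, and summing arms merges its name, so these gave none. The levels still overlapped, since control DM3 line 2 replicate 2, at 286 CPM, was below tKO line 1 replicate 1 and line 2 replicate 1. In the same edgeR fit the value was -0.46 (SE 0.50, adjusted p = 0.715) for miR-6364-3p and 0.88 (SE 0.80, adjusted p = 0.654) for miR-1931-3p.

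The miR-6240 and miR-6236 names in DM3 changed sign between genotypes with 1 library. With all libraries the log2 fold change, tKO minus control, was 0.39 (SE 0.75, adjusted p = 0.865 in edgeR's test) for miR-6240-3p, 0.55 (SE 0.75) for miR-6240-5p, 0.39 (SE 0.70) for miR-6236-5p and 0.69 (SE 0.82) for miR-6236-3p. Without tKO DM3 line 1 replicate 1 all 4 turned negative: -1.62 (SE 0.55, adjusted p = 0.0831 in edgeR's test), -1.62 (SE 0.51, adjusted p = 0.0679), -1.46 (SE 0.51, adjusted p = 0.0881) and -1.69 (SE 0.58, adjusted p = 0.0873). None of the 4 passed the threshold either way. The same omission raised the names called in DM3 from 10 of 881 tested to 62 of 942 tested, with miR-6406-5p the member among them.

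**Figure D5:**
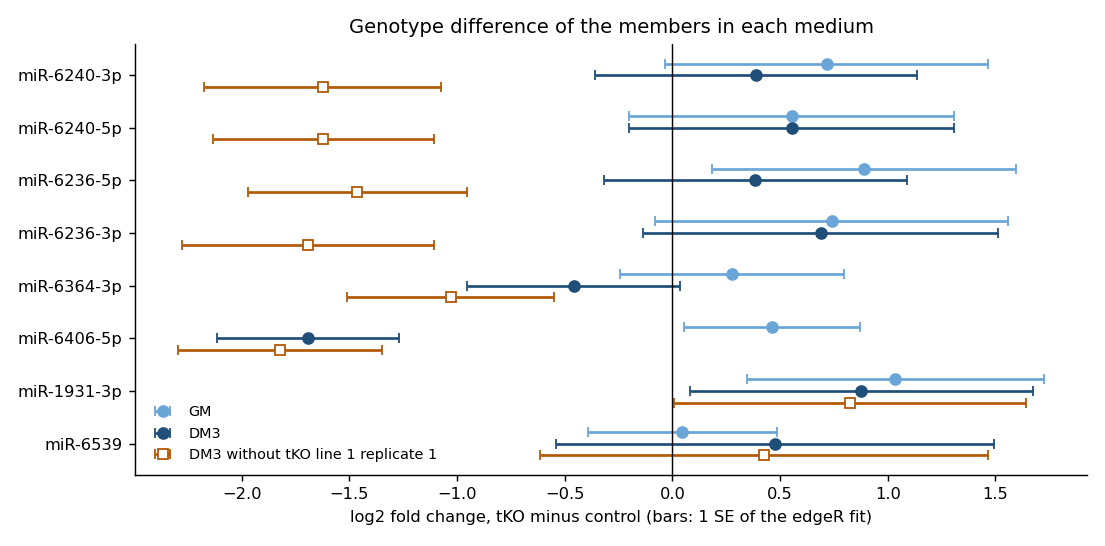
Log2 fold change, tKO minus control (x axis), with 1 SE of the edgeR fit for 8 members in GM, in DM3 and in DM3 without tKO line 1 replicate 1. The 4 miR-6240 and miR-6236 names lie right of 0 with all libraries and left of it without that library, and miR-6406-5p lies left of 0 in DM3 either way.

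The share of reads under 18 nt was compared where a member had 50 or more reads in each of the 8 libraries of a medium, which gave 10 tests with exact two-sided permutation over 70 assignments, where the smallest possible p is 0.0286. After adjustment over 10 tests a single member could not pass at that p, and the shares of miR-6406-5p and miR-6364-3p were at or near 100% in both genotypes, so the values are given as a description. For miR-6240-3p it was 37.4% ± 7.38 (SD, n = 4) in control and 35.4% ± 6.26 (SD, n = 4) in tKO GM libraries (exact permutation p = 0.571, adjusted 0.939), and 24.1% ± 4.50 and 29.0% ± 9.94 in DM3 (exact permutation p = 0.4, adjusted 0.939). For miR-6240-5p it was 34.3% ± 3.35 in control and 37.4% ± 3.62 in tKO GM (exact permutation p = 0.2, adjusted 0.939), the smallest p of the 10.

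Short reads with mismatches were not limited to the members. From a list of 207 names numbered near the members, chosen by number and not by value, 66 had 100 or more reads; the median share of their reads with a mismatch was 98.1% and the median share under 18 nt was also 98.1%. Of the 56 that passed the filter none was called between genotypes in either medium, with 4 and 5 at an unadjusted p under 0.05 in edgeR's test. Their median log2 fold change, tKO minus control, was 0.41 in GM and 0.19 in DM3. By Pearson r of log2(CPM + 1) over the 16 libraries, among 269 names with a mean of at least 100 CPM, those most like miR-6240-3p were miR-694-5p (0.967), miR-3154-3p (0.966), miR-712-3p (0.959), miR-677-5p (0.958) and miR-1199-3p (0.95). Those most like miR-1931-3p, the most abundant member with a lower mean in DM3 in both genotypes, were miR-125b-1-3p (0.874), miR-877-3p (0.865), miR-28-3p (0.811), miR-28a-3p (0.794) and miR-31-3p (0.782).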

How the data were processed

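Small RNA of 16 C2C12 cultures was made into libraries with a gel size selection, per the labels. The submitters' processing notes name cutadapt 1.15, STAR 2.5.4 and mm10 without their roles; the deposited unitas tables give expected counts per miRNA name, sequence and 3′ extension, and the version of unitas is not given in the sources used here. Expected counts were summed per name, rounded, and fitted with edgeR 4.0.16 in R 4.3.3 (TMM, filterByExpr with a minimum count of 10, robust quasi-likelihood test), which tested 881 of 2510 names with a common BCV of 0.477. CPM uses all listed reads; Python 3.11.15 placed sequences on GENCODE M21 hairpins. On simulated data the fit recovered 75% (GM) and 64.6% (DM3) of names changed 4-fold, and 21.3% and 10.4% of those changed 2-fold. The simulation gave every name the common BCV and held no outlying library. Recovery was therefore not measured at the spread of the miR-6240 and miR-6236 names, whose SE between genotypes was 0.70 to 0.82. Members and lists were chosen with earlier results of these data known. All 10 members are named; a leading sequence has the highest mean CPM, with the next ones in rank where they differ in more than length, and sequences of Mir6236 are not reported here; names most alike have the highest r. Alternatives cover scaling, filters, DESeq2 1.42.0, read subsets, left-out libraries and a replicate block. Whether replicate numbers mark a shared batch is not given in the sources used here. Replicate 1 was shallower than replicate 2 in every line and group, with 112792 to 1897820 against 926448 to 6543570 listed reads. The part of this difference in the levels was not tested.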

Additional observations from a re-analysis of the deposited data

Results flagged for a closer look

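Within groups of 4 libraries, 12 of 53 sets of values had an end value farther from the rest than Dixon's 95% critical value allows. Chance gives about 1 in 20 for independent sets, and these are not independent: the same libraries recur across names. In tKO DM3 the highest library was line 1 replicate 1 for miR-6240-3p (271127 CPM, next 24973), miR-6240-5p (53293, next 4769), miR-6236-5p (24798, next 2819) and miR-6236-3p (4477, next 339). The share of miR-6236-5p reads under 18 nt was lowest there, 14.9% against 32.0% in the next. In tKO GM the highest library was line 1 replicate 2 for miR-6236-5p (16879.8 CPM, next 4531), miR-6236-3p (1051, next 292) and miR-6406-5p (3075, next 999). In control DM3 line 1 replicate 2 was highest for miR-6240-3p (138097 CPM, next 39896), and in control GM line 2 replicate 1 was lowest for miR-6240-5p (429, next 847). The lowest share under 18 nt in control DM3 was 99.8% for miR-6406-5p and 99.8% for miR-6364-3p, with exactly 100% in the other libraries, so that any difference would pass there.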

How the results depend on the processing

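Of 120 values under alternatives for the counts, 92 were labelled the same. For names called and members higher in DM3 this meant within 1.5 times. For members called and share tests called, both 0 at first, it meant exactly 0. A single share test could not pass at its smallest possible p, so that label was nearly fixed in advance. Of 927 values for single members, 35 tKO minus control values changed sign. Changes of sign between media, as for miR-6236-5p in tKO cells, are not in this count. The 12 names called in GM became 21 with no filter or with 1 CPM in 4 libraries, 24 with the DESeq2 Wald test, 22 without mismatched reads, 20 with reads of 18 to 25 nt, 4 with replicate 2 alone, and 7 to 19 when leaving out 1 library. The 10 called in DM3 became 17 with DESeq2 size factors or no filter, 18 with 1 CPM, 26 with the Wald test, 6 with only the groups compared, 18 without mismatched reads, 19 with 18 to 25 nt, and 7 to 62 when leaving out 1 library (62 without tKO DM3 line 1 replicate 1). With the replicate block 13 and 16 names were called and 0 members. Same-numbered libraries of a line in different groups correlated at a median of 0.14 (24 pairs, -0.16 to 0.56). For differently numbered ones the median was -0.06 (24 pairs, -0.34 to 0.37), and 12 of 16 libraries lay closer to their own number. Against 0 members called, 1 (miR-6406-5p in DM3) was called with DESeq2 size factors, 1 CPM and the Wald test, and 0 to 1 when leaving out 1 library: the adjusted p in edgeR's test was 0.0303 without tKO GM line 1 replicate 2, 0.0087 without control DM3 line 2 replicate 2, 0.0308 without tKO DM3 line 1 replicate 1 and 0.0426 without tKO DM3 line 2 replicate 1. Members higher in DM3 in both genotypes were 5, 3 with 18 to 25 nt, and 3 to 5 when leaving out 1 library (3 without tKO DM3 line 1 replicate 1).

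The following log2 fold changes, tKO minus control, changed sign; none passed the threshold, and the cause was not tested. In DM3, with replicate 2 alone, miR-6240-3p was at -2.37, miR-6240-5p at -2.29, miR-6236-5p at -1.86 and miR-6236-3p at -2.47. With 1 CPM the first 3 were at -0.22, -0.056 and -0.20; with no filter miR-6240-3p was at -0.0089; without mismatched reads miR-6236-5p was at -0.23. The value of miR-6539 in GM was -0.019 with no filter, -0.10 with 1 CPM, -0.0026 with arms summed and -0.023 with replicate 2 alone, and in DM3 -0.20 with arms summed. That of miR-6364-3p in GM was -1.31 without mismatched reads. Leaving out 1 library gave, in DM3, -1.62 to 0.97 for miR-6240-3p, -1.62 to 0.97 for miR-6240-5p, -1.46 to 0.61 for miR-6236-5p, -1.69 to 1.23 for miR-6236-3p and -0.82 to 3.48 for miR-6539. In GM it gave -0.0033 to 0.93 for miR-6236-3p, -0.11 to 0.39 for miR-6539 and -0.048 to 0.49 for miR-6364-3p. For the share under 18 nt, tKO minus control in percentage points, a limit of 16 nt gave 0.522 for miR-6236-5p in DM3, -0.0185 for miR-6406-5p in GM and -1.58 for miR-6364-3p in DM3. Leaving out 1 library gave -5.60 to 0.833 for miR-6240-3p and -4.11 to 0.798 for miR-6236-3p in GM, and -2.45 to 4.10 for miR-6236-5p and 0 to 0.0591 for miR-6364-3p in DM3. Summing arms gave no value for arm names, leaving out mismatched reads none for miR-1931-3p and miR-6406-5p, and 18 to 25 nt none for miR-6406-5p and miR-6364-3p. With only the groups compared miR-6539 had none in DM3. Depth limits miR-6538, miR-1951 and, in DM3, miR-6539, which have few reads.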
